A study of Mus musculus with 2 samples.

Results

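The genes described here encode AP-1 (activator protein 1) transcription factors: Fos, Fosb, Fosl2, Jun, Junb, Jund, Batf and Atf3. They were taken by symbol from the gene lists of both count matrices, and all 8 were present among 27998 genes. The study profiled pancreatic immune cells of female NOD/ShiLtJ mice, sorted for CD45.1 on a flow cytometer, with 10x Genomics 3' single cell RNA sequencing. NOD mice develop autoimmune diabetes spontaneously, and both groups were of this 1 strain with no other allele and no treatment named. The groups were mice of 7 weeks and mice of 12 weeks, with 1 library each. The number of mice per library was not stated. A single library stood for each age, so the ages could not be compared by a test, and age, library, preparation and mouse cannot be told apart.

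AP-1 is a dimer of basic leucine zipper proteins that binds short palindromic DNA sites. Jun proteins pair with each other or with Fos proteins, while Fos proteins need a Jun partner. Many of these genes are immediate-early genes: resting cells hold little of their mRNA, and stimulation through the antigen receptor, cytokines, stress or tissue dissociation induces it within minutes to hours through MAP kinases, without new protein synthesis. Batf pairs with Jun proteins and acts with IRF factors in activated T and B cells. Atf3 is a stress-induced member that binds cyclic AMP response element sites and often represses transcription. Jund is commonly present in unstimulated cells as well.

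The stretches upstream of the start sites show what the inducible members share in sequence and where they differ. The 250 bases before each RefSeq start on GRCm38.p6 were searched on both strands. The letters TGACG, the core of the cyclic AMP response element, occurred in 5 of the 8 members, against 17.8% of 32851 upstream windows. Jun held TGACATCA, a site that Jun-ATF dimers are known to bind, which occurred in 2.93% of windows. Each stretch below runs 5′ to 3′ on the strand of its gene, with the matched letters in capitals.
Fos: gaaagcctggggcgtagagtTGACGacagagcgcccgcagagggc
Fos: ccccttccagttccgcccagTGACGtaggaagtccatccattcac
Fosb: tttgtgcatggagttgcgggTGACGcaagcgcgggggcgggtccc
Junb: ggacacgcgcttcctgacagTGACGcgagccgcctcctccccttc
Batf: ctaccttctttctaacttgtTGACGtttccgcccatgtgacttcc
Atf3: ggaagctattaatagcattaCGTCAgc
Jun: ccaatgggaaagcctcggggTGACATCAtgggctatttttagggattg

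The Fos stretches lie at chr12:85473741-85473785 and chr12:85473804-85473848 on the plus strand, with the match 125 and 62 bases before the start. The Fosb stretch is chr7:19310081-19310125 on the minus strand (56 bases before the start), and the Junb stretch is chr8:84978830-84978874 on the minus strand (102 bases before). The Batf stretch is chr12:85686602-85686646 on the plus strand (94 bases before). In Atf3, at chr1:191183334-191183360 on the minus strand, the match is on the opposite strand and reads CGTCA, 3 bases before a start that lies inside the gene's full span. The Jun stretch is chr4:95052240-95052287 on the minus strand (38 bases before). None of the 8 windows held the full site TGACGTCA (1.55% of windows; any such site also counts as TGACG), the AP-1 site TGAGTCA or TGACTCA (4.46%) or a CArG box (1.47%), which says only that these letters are not in this window. The RefSeq start of Jund differs from the start of its GENCODE gene, so its window may not be the stretch before the start used in these cells. The RefSeq starts of Fosb, Junb, Batf and Atf3 also differ from their GENCODE starts, and the distances given here are from the RefSeq starts. The matches are a description of sequence and were not measured as sites.

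The 7 week library held 1113 barcodes and 8701184 unique molecular identifiers (UMIs, each counting 1 captured mRNA), and the 12 week library 2812 barcodes and 19288252 UMIs. Median depth was 5643 and 4960.5 UMIs per barcode, and 2 barcodes occurred in both libraries. The median mitochondrial share was 1.97% and 2.03%. Clusters were built without the AP-1, immediate-early, kinase, feedback and heat shock genes measured here. A cluster took a name ending in "-like" only from listed markers, by a rule set after the clusters had been seen. Other clusters kept their number. Ptprc, which encodes CD45, was present in all 18 classes described, between 231 and 1372 CPM (counts per 1000000 UMIs). Markers of other pancreatic cells were higher at 12 weeks in all 10 classes with at least 50 cells in each library: 14 acinar genes summed to 14.9 to 59.5 CPM at 7 weeks and to 128 to 305 CPM at 12 weeks, and 11 endocrine genes to 21.2 to 57.1 and 120 to 210 CPM, with no listed gene at 0. In the same classes 9 stromal genes summed to at most 3.57 and 10.5 CPM, with Col1a2, Pdgfra and Rgs5 at 0 at 7 weeks, and 5 erythroid genes to 21.8 to 54.7 and 18.9 to 37.0 CPM. Each ratio over all classes was also taken over the cells without any acinar or endocrine UMI (647 and 328 cells), and is given with the member where it moved. These were 647 and 328 of the 888 and 2266 cells compared, with a median of 5238 and 4348 UMIs. Deep cells are less likely to hold no such UMI, so depth and the weight of each class may also differ there.

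The 10 classes compared, with their cells at 7 and 12 weeks, were B-like cells (144 and 554), naive T-like cells with Cd4 (76 and 370) or with Cd8a (51 and 211), CD4 T-like cells led by Tnfsf8, Tnfsf11 and Il21 (163 and 281), CD8 T-like cells led by Ccl5, Gzmk and Cd8a (72 and 151), regulatory T-like cells led by Foxp3 (88 and 120) and cycling-like cells (53 and 130). Cluster 3 (93 and 201) was led by Cd40lg, Il7r and Itgb1. Cluster 6 (60 and 162) was led by the dendritic cell genes Ppp1r14a and Ffar2 with Ifitm6. Cluster 9 (88 and 86) was led by Ncr1, Klra6 and Klrb1b, natural killer receptor genes, and also held Cd3e, the T cell receptor component, at 436 and 427 CPM. UMIs were summed per class and library. A level is the CPM of that sum, and a ratio is the 12 week level over the 7 week level with an exact 95% interval. PCR copies are collapsed by the UMIs, and the intervals cover counting error only, treating each UMI as independent. The ratio over all 10 classes, called the stratified ratio here, weights each class so that the different shares of these classes in the libraries do not enter. A different makeup of cells within a class can still enter.

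Fos, Fosb, Fosl2, Atf3 and Jund were lower in the 12 week library, and Junb was slightly lower. The Jun interval over all classes held 1 and Batf was slightly higher, and both differed in direction from class to class. Of the 8 members 5 had a stratified ratio at or under 0.8, against 15.8% of 10898 genes, and 0 had one at or over the inverse of 0.8, against 15.3%. Among the 5982 genes with at least 100 UMIs in each library, as all 8 members had, the shares were 11% and 8.06%. The median stratified ratio was 0.701 over the members and 1.04 over all genes. Counts of the 8 members over the classes compared ran from 124 UMIs (Fosl2) to 7485 (Junb) at 7 weeks and from 148 to 13992 at 12 weeks.

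**Figure D1:**
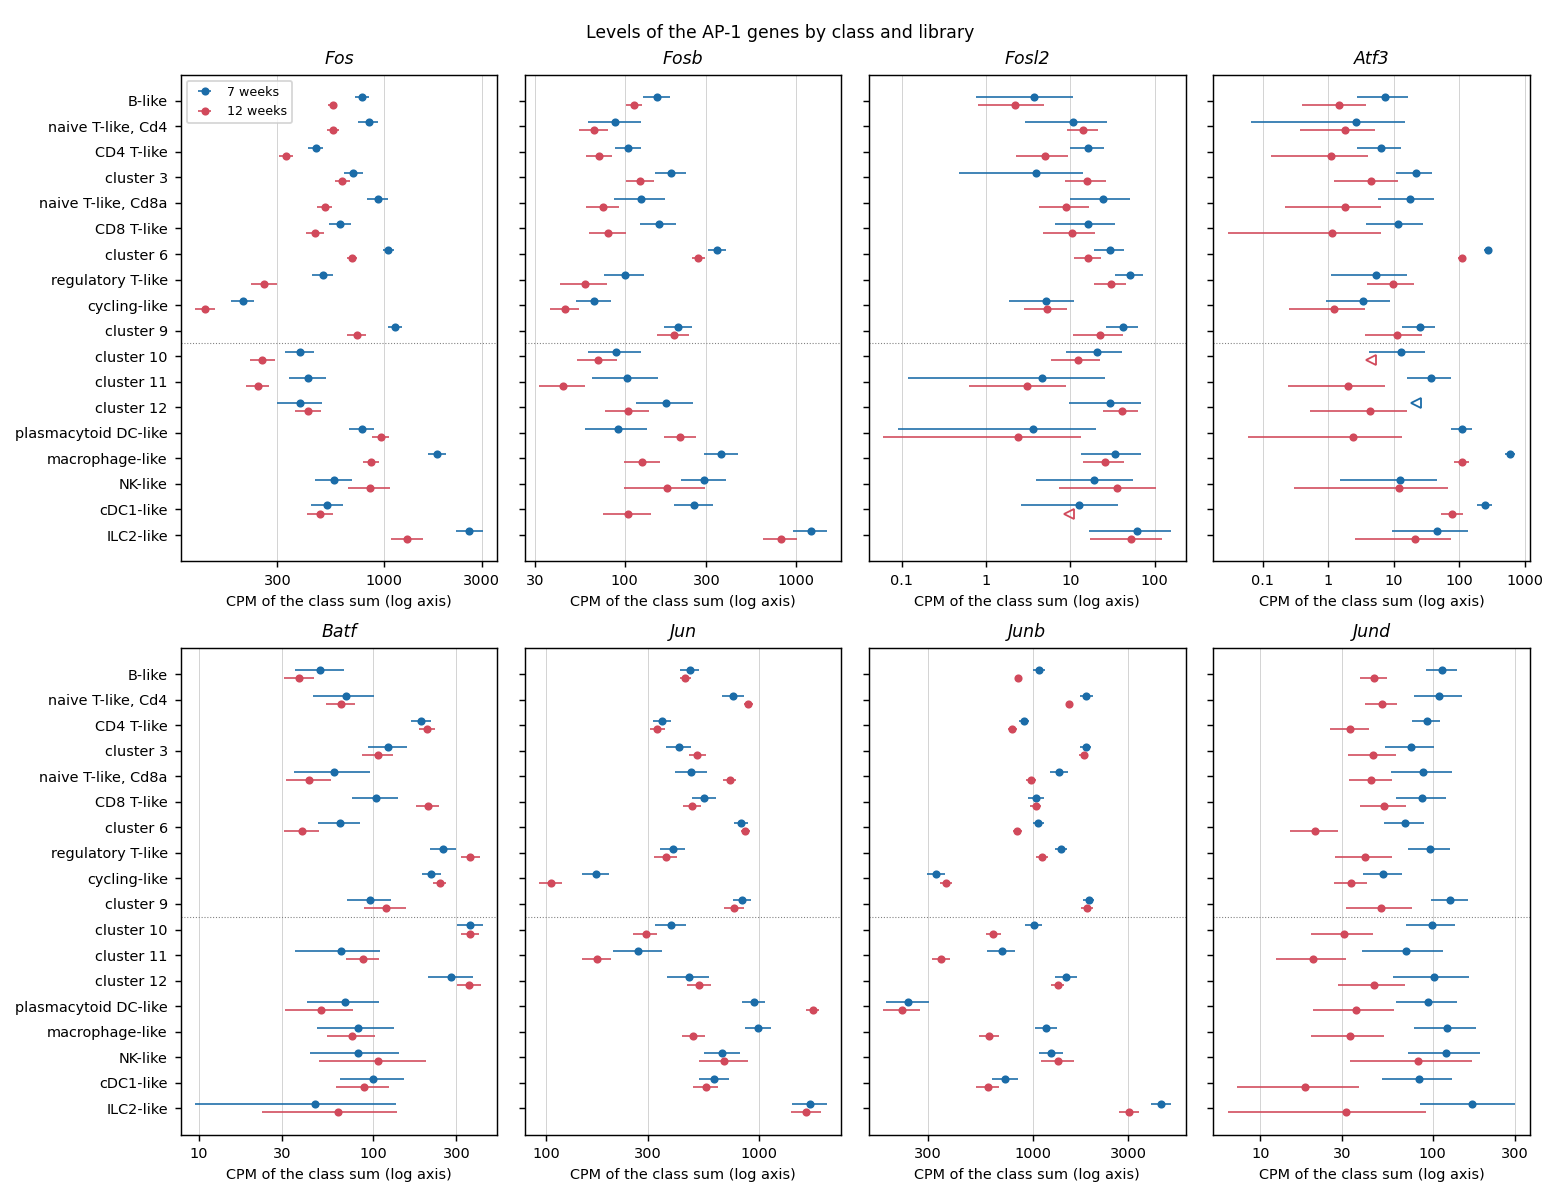
Level of each AP-1 gene (CPM of the class sum, log axis) in 18 classes at 7 weeks (blue) and 12 weeks (red). Bars are exact Poisson 95% intervals, and the dotted line separates the 10 classes compared from 8 smaller ones. An open triangle marks a count of 0, drawn at the upper limit of its exact Poisson interval. Fos, Fosb and Junb were highest in the small ILC2-like class (12 and 20 cells). Atf3 was highest in the macrophage-like class at 7 weeks, and Batf was high in regulatory T-like and cycling-like cells and in clusters 10 and 12.

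Fos encodes the prototype Fos protein, an inducible partner of Jun. The gene spans chr12:85473890-85477273 on the plus strand (GENCODE, GRCm38). In the 7 week library its level was 1129 CPM in cluster 9, 1050.0 in cluster 6, 929 in naive T-like cells with Cd8a, 839 in those with Cd4, 779 in B-like cells, 707 in cluster 3, 606 in CD8 T-like, 499.8 in regulatory T-like, 463 in CD4 T-like and 204 in cycling-like cells. In the 12 week library the same classes read 733, 694, 512, 562, 559, 624, 461, 258, 330.1 and 133 CPM. Every class was lower at 12 weeks, while the classes kept nearly the same order, with cluster 9 and cluster 6 on top and cycling-like cells at the bottom in both libraries. Spearman's rho between the orders was 0.879 over 10 classes, as a description. Neighbours in the order mostly could not be separated: 8 of 9 neighbouring pairs had overlapping intervals at 7 weeks and 6 of 9 at 12 weeks.

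The stratified Fos ratio was 0.683 (95% interval 0.657 to 0.711). Within classes it ran from 0.516 in regulatory T-like cells (0.426 to 0.624) to 0.882 in cluster 3 (0.771 to 1.01). The interval lay below 1 in 9 of 10 classes, and 2.66% of the 3115 genes measurable in every class reached 9. Over cells without acinar or endocrine UMIs the stratified ratio was 0.795 (0.737 to 0.858). In cells of cluster 6 thinned at random to 1000 UMIs each, 65.0% held a Fos UMI at 7 weeks (exact binomial interval 51.6% to 76.9%) and 37.7% at 12 weeks (30.2% to 45.6%). Without thinning the shares were 95% and 80.9%. The lower level thus came with more cells lacking a Fos UMI, and with fewer holding 4 or more (10.0% and 4.32% of thinned cells). Cd3e in cluster 6 was 125 CPM at 7 weeks and 17.7 at 12 weeks, and its part in these shares was not tested.

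Fosb, a second inducible Fos protein that is also induced by stimulation in many cell types, spans chr7:19302696-19310051 on the minus strand. Its level was 345 CPM at 7 weeks and 268 at 12 weeks in cluster 6, and 66.1 and 44.9 in cycling-like cells, the highest and lowest classes in both libraries. Cluster 9 read 205 and 193 CPM, cluster 3 read 187 and 123, B-like cells 154 and 114, and CD8 T-like cells 157 and 79.9. The remaining 4 classes lay between 88.1 and 124 CPM at 7 weeks and between 58.5 and 74.5 CPM at 12 weeks. The order of classes was nearly the same in both libraries (rho 0.976, 10 classes).

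Fosb followed Fos in direction. Its stratified ratio was 0.718 (0.662 to 0.778), with every class below 1 and the interval below 1 in 8 of 10, a count that 3.31% of 3115 genes reached. The ratio was lowest in CD8 T-like cells, at 0.507 (0.357 to 0.721), and highest in cluster 9, at 0.939 (0.698 to 1.26). Set directly against Fos in the same cells, which needs no scaling, Fosb per Fos changed between libraries by 0.668 to 1.45 times over the classes, and its interval lay above 1 in 1 class and below 1 in 1. Over cells without acinar or endocrine UMIs the Fosb ratio was 0.849, and its interval held 1.

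Fosl2, which encodes the Fos-related protein Fra-2, was sparse and lay outside the pattern of its relatives between classes. It spans chr5:32135801-32157842 on the plus strand. Its level was 50.9 CPM at 7 weeks and 30.6 at 12 weeks in regulatory T-like cells, 42.2 and 22.7 in cluster 9, and 29.8 and 16.1 in cluster 6, the 3 highest classes in both libraries. B-like cells were lowest, at 3.73 and 2.22 CPM from 3 and 6 UMIs. Regulatory T-like cells were thus high for Fosl2 and low for Fos and Fosb, although no neighbouring classes in the order had separate intervals. The stratified ratio was 0.630 (0.491 to 0.807) from 124 and 148 UMIs. Over cells without acinar or endocrine UMIs it was 0.686 (0.382 to 1.23), and its interval held 1. Only 3 classes had 30 UMIs or more, with ratios of 0.537 to 0.602, and the interval lay below 1 in 1 of them, cluster 6 (0.541, 0.309 to 0.956).

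Jun, the founding Jun protein and the usual partner of Fos, did not follow the lower Fos level over all classes. It spans chr4:95049034-95052222 on the minus strand. At 7 weeks its level was 831 CPM in cluster 9, 819 in cluster 6, 753 in naive T-like cells with Cd4, 552 in CD8 T-like cells, 480.2 in naive T-like cells with Cd8a and 471 in B-like cells. Cluster 3 followed at 418 CPM, then regulatory T-like cells at 394, CD4 T-like cells at 349.8 and cycling-like cells at 171. In the same order of classes the 12 week levels were 758, 860, 888, 483, 726, 449.9, 512, 365, 333 and 105 CPM. Naive T-like cells of both kinds and cluster 3 stood higher at 12 weeks, cycling-like cells stood lower, and the other 6 classes lay close to their 7 week level.

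The stratified Jun ratio was 1.01 (0.970 to 1.06). It hid opposite values: 1.51 (1.26 to 1.83) in naive T-like cells with Cd8a, 1.22 (1.04 to 1.44) in cluster 3 and 1.18 (1.04 to 1.34) in naive T-like cells with Cd4, against 0.617 (0.510 to 0.746) in cycling-like cells. Cycling-like cells held Cd4 at 82.4 and 151 CPM, Cd8a at 305 and 444, and Ncr1 at 30.9 and 0.41. The part of this makeup in their Jun ratio was not tested. Of 3115 genes, 8.25% had an interval below 1 in at least 1 class and above 1 in at least 1 other, as Jun did. In naive T-like cells with Cd8a, 31.4% of thinned cells held a Jun UMI at 7 weeks (19.1% to 45.9%) and 46.9% at 12 weeks (40.0% to 53.9%), and unthinned 72.5% and 81.5%. In the same cells the Fos ratio was 0.551 (0.475 to 0.640). Over cells with no acinar or endocrine UMI the stratified Jun ratio was 1.15 (1.06 to 1.24), above 1 with its interval. Cycling-like cells, with the lowest Jun ratio, were deep (median 18683 and 15920 UMIs) and may weigh less in that subset. The part of this in the value was not tested.

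Set against Fos in the same cells, Jun gained in most classes. The ratio of Jun to Fos UMIs changed between libraries by 0.947 to 2.74 times, with a median of 1.395, and its interval lay above 1 in 8 of 10 classes. Cycling-like cells were the exception below 1. Since both genes come from the same UMI sums, this value does not depend on the scaling.

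Junb encodes a Jun protein that can restrain as well as replace Jun and that is abundant in T cells. It spans chr8:84974484-84978718 on the minus strand. At 7 weeks its level was 1903 CPM in cluster 9, 1854 in naive T-like cells with Cd4, 1841 in cluster 3, 1388 in regulatory T-like cells, 1352 in naive T-like cells with Cd8a, 1080.0 in B-like cells, 1068 in cluster 6, 1041 in CD8 T-like cells, 908 in CD4 T-like cells and 331 in cycling-like cells. In the same order the 12 week levels were 1871, 1520.4, 1797, 1113, 981, 848, 839, 1037, 792 and 370.0 CPM. Junb had more UMIs than any other member in both libraries, and its order of classes was stable (rho 0.915). It was distinct from Fos and Jun in cluster 6, which stood near the top for those genes and seventh or eighth for Junb.

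The stratified Junb ratio was 0.871 (0.847 to 0.897), a smaller difference than that of Fos, and it was 0.947 (0.898 to 0.999) over cells without acinar or endocrine UMIs. The interval lay below 1 in 6 of 10 classes, a count that 4.53% of 3115 genes reached, and the lowest value was 0.726 (0.645 to 0.817) in naive T-like cells with Cd8a. Clusters 3 and 9 and CD8 T-like cells lay between 0.976 and 0.996, and cycling-like cells at 1.12 (0.992 to 1.26). In those cycling-like cells Jun was 0.617, so the ratio of Jun to Junb UMIs changed by 0.551 times there, with its interval below 1. Cd4, Cd8a and Ncr1 in these cells also differed between libraries, as given above. Elsewhere Jun per Junb changed by up to 2.08 times, with its interval above 1 in 5 classes. Fos per Junb changed by 0.582 to 0.914 times over all 10 classes, with the interval below 1 in 8. Of B-like cells thinned to 1000 UMIs, 59.7% held a Junb UMI at 7 weeks (51.2% to 67.8%) and 47.7% at 12 weeks (43.4% to 51.9%), against 90.3% and 83.9% unthinned.

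Jund, the Jun protein known for steady expression, differed less between classes than Fos, Fosb, Jun, Junb and Batf and was lower at 12 weeks in every class. It spans chr8:70698949-70700616 on the plus strand. At 7 weeks its level ran from 51.5 CPM in cycling-like cells to 127 in cluster 9, with a median of 90.3, and at 12 weeks from 20.8 in cluster 6 to 52.1 in CD8 T-like cells, with a median of 44.6. The ranges of the 2 libraries nearly separated: only cycling-like cells at 7 weeks lay within the range of the 12 week classes. All 9 neighbouring pairs of classes had overlapping intervals in both libraries, and the orders were less alike than for the other Jun genes (rho 0.491).

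The stratified Jund ratio was 0.448 (0.397 to 0.504), and the interval lay below 1 in all 10 classes, as it did for 2.09% of 3115 genes. Within classes it ran from 0.301 (0.196 to 0.458) in cluster 6 to 0.655 (0.464 to 0.930) in cycling-like cells. The 3 genes whose levels over the 20 class and library values were most like Jund were Rpl13-ps3 (rho 0.895, stratified ratio 0.456), Rps26-ps1 (0.889 and 0.467) and Rpl23a-ps3 (0.886 and 0.539), named as ribosomal protein pseudogenes. A symbol ending in -ps, or in -ps and a number, was held by 19 measurable genes, these 3 included. Of the 19, 17 had a stratified ratio at or under 0.8, a share of 89.5% against 15.6% of 10879 other genes. The median of the 19 was 0.467. The part that the library itself plays in the Jund value was not tested.

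Atf3 was almost confined, among the 10 classes, to cluster 6. It spans chr1:191170296-191218039 on the minus strand. Its level there was 273 CPM at 7 weeks and 108 at 12 weeks, from 229 and 208 UMIs, while the next class, cluster 9, read 24.96 and 11.4 CPM from 13 and 5 UMIs. Each of the other 8 classes held at most 11 UMIs in a library. The ratio in cluster 6 was 0.396 (0.327 to 0.480), and the stratified ratio was 0.383 (0.322 to 0.455). Over cells without acinar or endocrine UMIs it was 0.137 (0.060 to 0.311), farther from 1. Cells of cluster 6 were deep, with a median of 13785 and 12073 UMIs. Few of them may be in that subset, and their number there is not given. Cluster 6 also held Cd3e at 125 CPM at 7 weeks and 17.7 at 12 weeks, and Foxp3 at 20.2 and 0 CPM, so both T cell genes were lower there at 12 weeks, and their part in the ratio was not tested. Of thinned cells in cluster 6, 16.7% held an Atf3 UMI at 7 weeks (8.29% to 28.5%) and 8.02% at 12 weeks (4.34% to 13.3%), against 0.69% and 0.18% of B-like cells. Without thinning the shares in cluster 6 were 56.7% and 36.4%.

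Batf, the lymphocyte partner of Jun, differed from Fos and Jun in its class pattern and was not lower over all classes. It spans chr12:85686669-85709087 on the plus strand. At 7 weeks its level was 253 CPM in regulatory T-like cells, 216 in cycling-like cells, 188 in CD4 T-like cells, 122 in cluster 3, 103 in CD8 T-like cells and 96.0 in cluster 9. Naive T-like cells with Cd4 read 69.4 CPM, cluster 6 read 64.3, naive T-like cells with Cd8a read 60.0, and B-like cells read 49.7. In the same order the 12 week levels were 361, 240.0, 203, 106, 206, 118, 65.4, 39.0, 43.1 and 37.7 CPM. Regulatory T-like cells were highest and B-like cells lowest in both libraries, as for Fosl2, and cycling-like cells, the lowest class for Fos, Fosb, Jun and Junb, were second for Batf. Over the 20 class and library values, rho was -0.63 between Batf and Fos and also -0.63 between Batf and Jun, while it was -0.06 between Batf and Junb and also -0.06 between Batf and Jund, 0.191 between Batf and Fosl2, 0.803 between Fos and Fosb and 0.701 between Fos and Jun. These values are descriptions, since the classes of a library share its cells and depth.

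The stratified Batf ratio was 1.11 (1.03 to 1.21), with 5 of 10 classes below 1 and 5 above. It was 1.31 (1.11 to 1.53) over cells without acinar or endocrine UMIs, while its interval held 1 at a mitochondrial share of at most 5% (1.06, 0.986 to 1.14) and with the measured genes allowed among the variable genes (1.07, 0.998 to 1.16). The interval lay above 1 in CD8 T-like cells, at 1.99 (1.43 to 2.84), and in regulatory T-like cells, at 1.43 (1.16 to 1.77). It lay below 1 in cluster 6, at 0.606 (0.422 to 0.876), where Cd3e stood at 125 and 17.7 CPM as given above. In CD8 T-like cells Batf rested on 44 and 178 UMIs. Of those cells thinned to 1000 UMIs, 2.78% held a Batf UMI at 7 weeks (0.34% to 9.68%) and 17.9% at 12 weeks (12.1% to 24.9%), against 4.86% and 2.17% of B-like cells, and unthinned 34.7% and 54.3%. Of the 10 genes that led the CD8 T-like class, Ctla2a and Gzmk also stood over 1.5 times higher at 12 weeks, and whether the class held the same cells at both ages was not tested. Regulatory T-like cells held Foxp3 at 231 and 252 CPM, and 2 of their 10 leading genes, Il10 and Itgae, stood over 1.5 times lower.

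**Figure D2:**
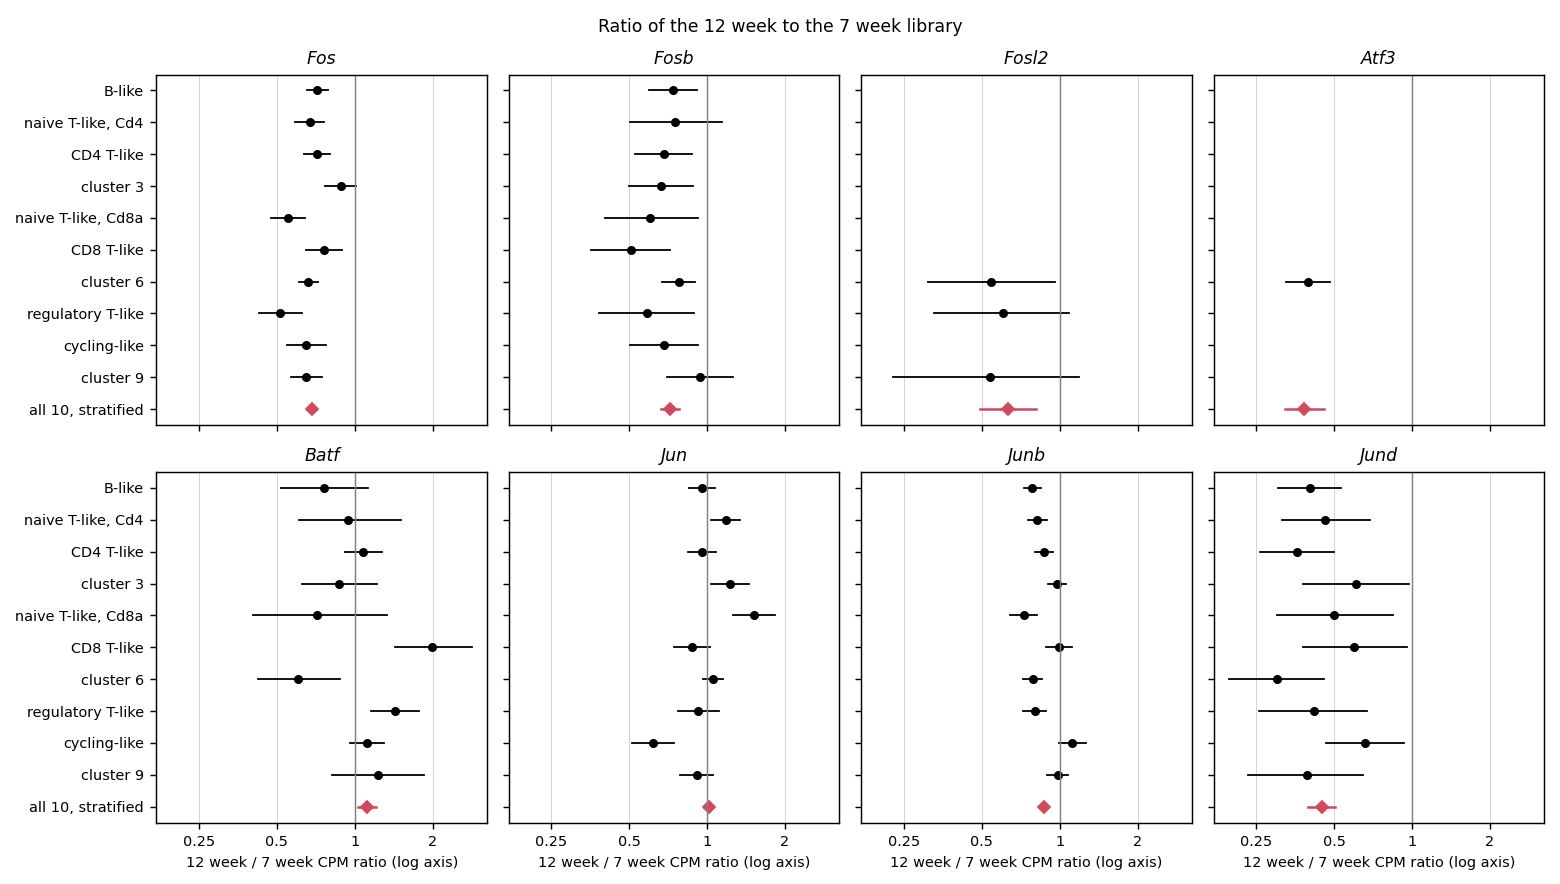
12 week over 7 week ratio of each AP-1 gene (log axis) in the 10 classes, with exact 95% intervals (black), and the ratio stratified over all 10 (red diamond); the grey line is 1, and only classes with at least 30 UMIs are drawn. Fos, Fosb and Jund lay left of 1 in every class, while Jun ran from 0.617 in cycling-like cells to 1.51 in naive T-like cells with Cd8a and Batf from 0.606 in cluster 6 to 1.99 in CD8 T-like cells.

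Read class by class, the members with a ratio beyond 0.8 or its inverse were mainly lower. In B-like cells 5 of the 6 members with at least 30 UMIs had a ratio at or under 0.8 (17.6% of 6829 genes did) and 0 at or over the inverse (26.5%). Naive T-like cells with Cd8a had 5 of 6 at or under 0.8 (20.8% of 4190 genes) and 1, Jun, at or over the inverse (25.9%). Those with Cd4 had 3 of 6 lower (23.3% of 5222 genes) and 0 higher (24.6%). Naive T-like cells with Cd8a were the class where the Jun and Fos genes parted most. CD4 T-like cells had 3 of 6 lower (17.9% of 6979 genes) and 0 higher (22.8%), and cluster 3, the class with the fewest lower members, had 2 of 6 (19.7% of 4543 genes) and 0 higher (21.7%). CD8 T-like cells had 3 of 6 lower (16.3% of 4279 genes) and Batf higher (29.9%). Regulatory T-like cells had 4 of 7 lower (20.4% of 4666 genes) and Batf higher (21.4%). Batf was thus the member beyond the fold on the high side in both of these T cell classes.

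Cluster 6 was the class in which all 8 members could be measured, and 7 were at or under 0.8 (21.9% of 6889 genes), Jun being the exception at 1.05 (0.960 to 1.15), with 0 higher (26.0%). Cd3e in cluster 6 was 125 and 17.7 CPM and Foxp3 20.2 and 0 CPM, and their part in this count was not tested. Cycling-like cells had 4 of 6 lower (18.0% of 7256 genes) and 0 higher (22.0%), with Junb and Batf the members above 1. Cd4, Cd8a and Ncr1 differed between libraries there, as given above. Cluster 9 had 3 of 7 lower (18.9% of 3720 genes) and 0 higher (23.3%). The median log2 ratio of the members lay between -0.73 in regulatory T-like cells and -0.13 in cluster 9, where that of all genes lay between 0.02 and 0.12 over the 10 classes.

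Levels also differed between classes, given here as a range, which is not the same measure as the stratified ratio between libraries. The highest over the lowest of the 10 classes, on the mean level of both libraries, was 5.54 for Fos (cluster 9 over cycling-like), 5.53 for Fosb (cluster 6 over cycling-like), 6.08 for Jun (cluster 6 over cycling-like), 5.39 for Junb (cluster 9 over cycling-like) and 7.02 for Batf (regulatory T-like over B-like). Jund was 2.07. A range of at least 2 was common, at 72.9% of 5903 genes, with a median range of 2.49. On the mean level of both libraries the range of Jund was below that of most genes and the others above it. Fosl2 and Atf3 had fewer than 10 UMIs in some class, and their ranges of 13.7 and 85.4 rest on those few counts. The ranges depend on how classes are drawn: with classes from the highest marker score they were 3.61 for Fos, 3.23 for Fosb and 4.03 for Atf3, and in thinned cells that of Fosb was 13.97.

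Smaller classes, with 10 to 49 cells in at least 1 library, held the highest Fos, Fosb, Jun, Junb and Atf3 levels. ILC2-like cells, led by Il1rl1, Hlf and Arg1 (12 and 20 cells), had the highest Fos of any class in both libraries, at 2617 and 1294 CPM, and the highest Junb, at 4372 and 3026 CPM. Fosb there was 1216 and 814 CPM, also above every other class, and Jun was 1724 and 1659 CPM. At 7 weeks 1 ILC2-like cell held 22.4% of the Fos UMIs, 1 held 25% of Junb and 1 held 27.7% of Jun. At 12 weeks 1 cell held 26.9% of the Fosb UMIs. Macrophage-like cells (19 and 47 cells) had Fos at 1814 and 863 CPM, Jun at 984 and 491, and Atf3 at 598 and 109 CPM. All 3 genes were lower at 12 weeks there, with ratios of 0.475 (0.414 to 0.546), 0.499 (0.414 to 0.602) and 0.181 (0.131 to 0.249), and Cd3e in these cells was 67.6 and 12.9 CPM. In cDC1-like cells (11 and 23 cells), Atf3 was 247 and 78.0 CPM and Fosb 255 and 104 CPM, with ratios of 0.316 (0.197 to 0.499) and 0.408 (0.267 to 0.618), while Fos and Jun had intervals that held 1. In these cells 1 cell held 37.7% of the Fosb UMIs and 35.6% of the Atf3 UMIs at 7 weeks, and Cd3e was 121 and 18.2 CPM and Foxp3 29.3 and 0 CPM.

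Plasmacytoid DC-like cells (30 and 53 cells) went the other way for Fos, Fosb and Jun. Jun was 944 CPM at 7 weeks and 1774 at 12 weeks, Fosb 90.8 and 211, and Fos 777 and 960.0 CPM, with ratios of 1.88 (1.63 to 2.17), 2.33 (1.48 to 3.79) and 1.24 (1.04 to 1.47). Atf3 was 109 CPM at 7 weeks from 30 UMIs and 2.40 CPM at 12 weeks from 1 UMI, and Cd3e stood at 152.5 and 21.6 CPM. Junb was lower in this class than in any other, at 239.7 and 223 CPM. NK-like cells (25 and 18 cells) had Fos at 568 and 851 CPM, and 1 cell held 25% of the Fos UMIs at 12 weeks. Cluster 10, led by Ccl5, Klrc1 and Gzmb with Cd8a, had high Batf, at 359 and 359.9 CPM. Cluster 12 also had high Batf, at 281 and 356 CPM. The first leading gene of cluster 12 was the acinar gene Ctrb1, and Il10, Lag3 and Il21 were also among its leading genes. Its acinar genes summed to 389 and 919 CPM. In cluster 11, led by the B cell genes Pou2af1 and Ms4a1, the ratios of Fos, Jun and Junb were 0.565, 0.638 and 0.4996, each with its interval below 1.

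Over the 8 small classes, Jund was measurable in 5 and lay below 1 with its interval in 5. Fosb lay below 1 in 7 of 8, with the interval below in 5 and above in 1. Fos lay below 1 in 5 of 8, with the interval below in 4 and above in 2. Jun lay below 1 in 5 of 8, with the interval below in 3 and above in 1. Junb lay below 1 in 7 of 8, with the interval below in 4 and above in 0. Atf3 was measurable in 3 and lay below 1 with its interval in 3. Batf was measurable in 6 and lay below 1 in 3, with no interval excluding 1. None of these classes had 30 UMIs of Fosl2. No share over all genes is given beside these counts, so they are not read as a result about the members.

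**Figure D3:**
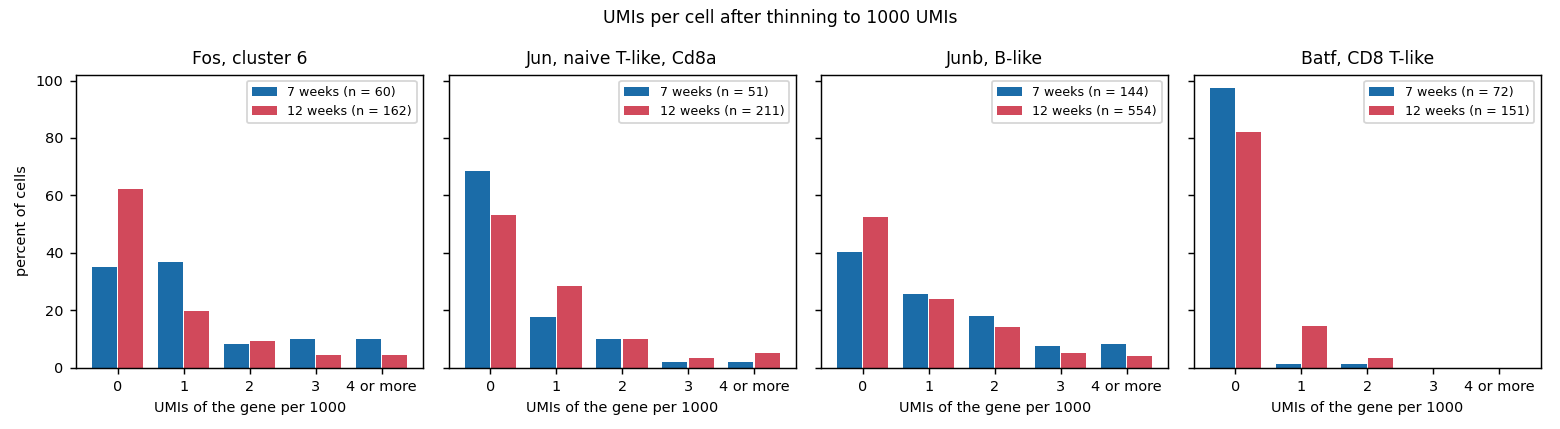
Percent of cells (vertical axis) with 0, 1, 2, 3 or 4 and more UMIs of a gene after each cell was thinned to 1000 UMIs, at 7 weeks (blue) and 12 weeks (red), for 4 pairs of gene and class. Fos in cluster 6 and Junb in B-like cells had more cells at 0 at 12 weeks, and Jun in naive T-like cells with Cd8a and Batf in CD8 T-like cells had fewer.

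The other genes of the pathway were read from lists chosen with results of these data known, and each count below stands against the 15.8% of all genes lower, the 15.3% higher and the median of 1.04 over all genes. In the list of 20 immediate-early genes outside AP-1, 19 were measurable, 10 had a stratified ratio at or under 0.8 and 0 at or over its inverse, with a median of 0.755, nearest to the members among the 7 lists. Ier5, an immediate-early gene, was lowest at 0.209 (0.190 to 0.230), and Klf4, a zinc finger factor, was 0.499 (0.413 to 0.602). The list was not uniform: Ier2, also induced with AP-1, was 0.932 (0.885 to 0.981) and Klf6 was 0.992. Of 10 heat shock genes 4 were lower and 0 higher (median 0.894), with the chaperone gene Hspa1b at 0.321 (0.293 to 0.351). The part that handling of the cells plays in these levels was not tested.

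Of 23 kinases and factors upstream of AP-1, 4 were lower, a share near the 15.8% of all genes, and 1 higher (median 0.923). Mapk14, which encodes the p38 kinase, was 0.480 (0.404 to 0.571), while Mapk8 and Mapk9, which encode Jun kinases, were 0.844 (0.662 to 1.08) and 1.02 (0.823 to 1.26). Of 14 brakes and feedback genes 4 were lower and 1 higher (median 0.894). The higher gene was Tsc22d3, which encodes GILZ, a glucocorticoid-induced protein known to bind AP-1, at 1.54 (1.42 to 1.66), and Dusp10, a phosphatase of p38 and Jun kinase, was 1.15 (0.978 to 1.36). Of the 15 measurable relatives outside the members, 5 were lower and 1 higher (median 0.934). Of 9 partners at composite sites 1 was lower and 0 higher (median 0.935), with Spi1 at 1.24 (1.13 to 1.37) and Irf8 at 1.16 (1.06 to 1.26).

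Genes known as AP-1 targets in lymphocytes were near the background: of 15 measurable, 3 were lower and 3 higher, against 15.8% and 15.3% of all genes, with a median of 1.06 against 1.04. Unlike the other lists, these targets and the partners at composite sites were allowed among the variable genes from which the clusters were formed. Il10, an inhibitory cytokine gene, was 0.443 (0.358 to 0.547). Ccnd1, a cell cycle gene, was 1.46 (1.28 to 1.68), and Il21, a T helper cytokine gene, was 1.15 (0.910 to 1.45).

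**Figure D4:**
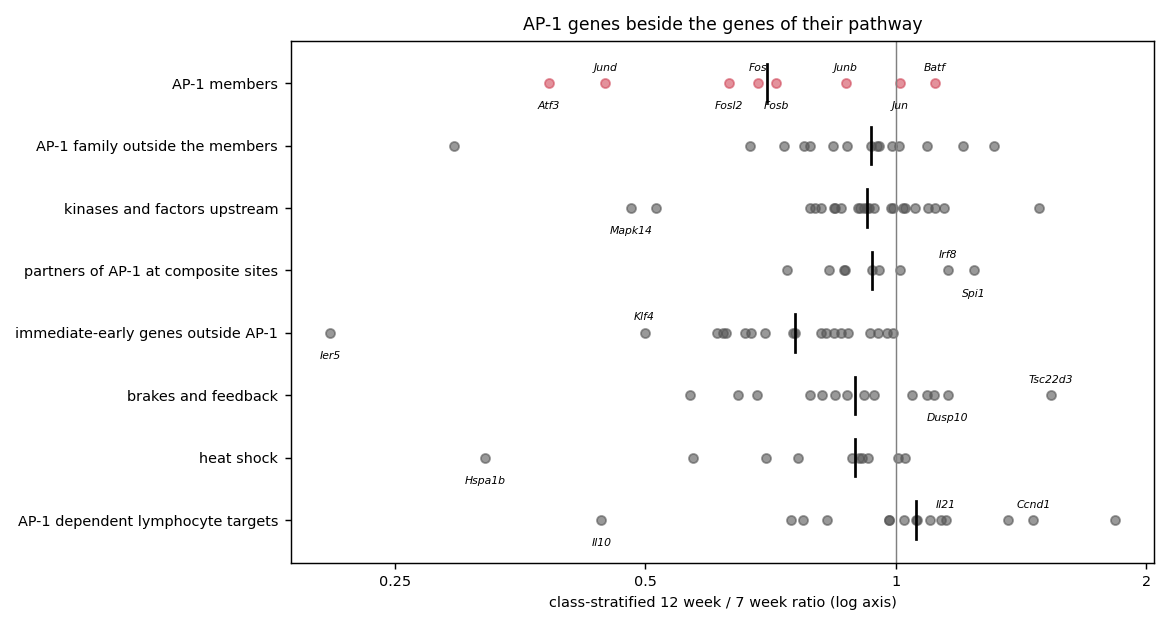
Stratified 12 week over 7 week ratio (log axis) of the 8 AP-1 genes (red) and of the measurable genes of 7 pathway lists (grey); each point is 1 gene, the black bars are list medians, and the grey line is 1. The members' median of 0.701 lies beside the 0.755 of the immediate-early genes, while the lymphocyte targets lie around 1.06.

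The genes most like each member over the 20 class and library values, among 3115 genes, differed by member. Fos was nearest to Kmt2c and Ier2 (rho 0.845 each) and Slc38a2 (0.808), and Fosb to Slc38a2 (0.883), Dock10 (0.829) and Fos (0.803). Jun was nearest to Ier2 (0.872), Psmb10 (0.853) and Prdx6 (0.823), and Junb to Il2rg (0.866), Klf6 (0.841) and Tgoln1 (0.826). Batf was nearest to Abracl (0.950), Ndfip1 (0.931) and Sh2d2a (0.919). Fosl2 was nearest to Mxd1 (0.788), Pim1 (0.762) and Cln3 (0.755), and Atf3 to Cbl (0.856), Fosb (0.797) and Kdm6b (0.756). Fosl2 and Atf3 fell short of 30 UMIs in some classes, so neither could be listed as a nearest gene. With that limit, Fosb and Atf3 alone had another member among their 3 nearest genes, and in both cases it was a Fos gene. Points of one library share its depth and preparation.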

How the data were processed

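The deposited matrices hold raw UMI counts for every gene in every barcode. Per the submitters' processing notes, the authors used Cell Ranger 1.3.1 and mm10. Barcodes under 200 genes or over 10% mitochondrial UMIs were left out (4 and 8). Scrublet marked 2 of the barcodes at 7 weeks (0.180%) and 22 at 12 weeks (0.785%), which were removed, leaving 1107 and 2782 cells. Doublets may remain: 10 and 9 cells held at least 2 UMIs of both Cd3e and Cd79a. Cells in which marker genes of acinar, endocrine, erythroid or stromal cells exceeded 2% of UMIs (2 and 15) were set aside.

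Both libraries were clustered together in scanpy 1.11.5 (2000 variable genes without the measured AP-1, immediate-early, kinase, feedback and heat shock genes, 30 principal components, 15 neighbours, Leiden resolution 1.0). A cluster was named when at least 3 of its 10 leading genes, among genes in 25% of its cells, were markers of 1 of 24 lists and of no other list as many, with 3 markers each in 10% of cells. The members and lists were chosen with earlier results of these data known.

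Summed counts were compared as CPM, with exact conditional binomial 95% intervals for ratios, Mantel-Haenszel weights with Greenland-Robins intervals over classes, and exact Clopper-Pearson intervals for shares of cells. Ratios needed 30 UMIs in a class and levels 10 cells in each library. No test was run, since each age had 1 library. Every cell was deep enough for thinning to 1000 UMIs. Named were all 8 members, the 6 lowest and 6 highest pathway genes with at least 100 UMIs in each library, and the 3 genes most like each member; 1 of these pathway genes is not reported here. Mapk8, Mapk9, Ier2 and Klf6 were added after their values had been seen. The calculation of ratios was tested on simulated data. Alternatives covered scaling (TMM in edgeR 4.0.16 and median of ratios), thinning, clustering, naming, filters and single cells. Sequences came from RefSeq windows on GRCm38.p6, in which all 8 members had an entry, and gene positions from GENCODE vM21 on GRCm38.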

Additional observations from a re-analysis of the deposited data

Results flagged for a closer look

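The direction of the library difference was not the same in all classes for Jun and Batf, and the difference between classes was not tested, since each age had 1 library. Jun had a 12 week over 7 week ratio of 1.51 in naive T-like cells with Cd8a and 0.617 in cycling-like cells. The levels of Cd4, Cd8a and Ncr1 in cycling-like cells also differed between libraries, and their part was not tested. Batf had a ratio of 1.99 in CD8 T-like cells and 0.606 in cluster 6. All 4 intervals excluded 1 by counting error alone.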

How the results depend on the processing

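No stratified ratio or class ratio whose interval excluded 1 changed direction under the alternatives run. The stratified Jun ratio, whose interval held 1, ran from 0.977 to 1.15 and lay below 1 in 4 of 12 alternatives. The Batf interval lay above 1 in 10 of 12, and the Fosb and Fosl2 intervals below 1 in 11 of 12 each. Of 96 stratified values 83 stayed within the main interval. Over cells without acinar or endocrine UMIs (647 and 328 cells, added after seeing the data) the ratios were 0.795 for Fos, 0.849 for Fosb, 0.137 for Atf3, 1.31 for Batf, 1.15 for Jun and 0.947 for Junb. Depth and the weight of each class may also differ in that subset. In thinned cells they were 0.597 for Fosb, 0.467 for Fosl2, 1.38 for Batf, 1.10 for Jun and 0.833 for Junb. With classes from the highest marker score, Atf3 was 0.264 and Junb 0.841. The causes were not tested. TMM or median-of-ratios scaling moved a class by at most 0.08 in log2.

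Class ranges depended more on how classes were drawn, with 27 of 46 values near the main one. At Leiden resolution 0.5 the range was 5.36 for Fos, 6.20 for Batf, 5.88 for Jun and 4.86 for Junb. With marker score classes it was 3.61 for Fos, 3.23 for Fosb, 4.03 for Atf3, 5.67 for Batf, 4.83 for Jun and 4.45 for Junb. In thinned cells it was 7.92 for Fos, 13.97 for Fosb, 9.60 for Batf and 4.85 for Jun. The 7 week library alone gave 5.08 for Batf, 4.87 for Jun and 5.76 for Junb, and the 12 week library alone 9.57 for Batf and 8.42 for Jun. Within classes 255 of 256 ratios stayed within the main interval. At a fold of 1.5, 7.18% of genes were lower and 5.08% higher. No paired analysis was possible because each age had 1 library. Counts of Fosl2 and Atf3 outside cluster 6 were too low for most class ratios.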
